A study of Mus musculus with 24 samples.

Results

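The 4 genes Mcam, Acvrl1, Cd55 and Anxa1, known from blood vessel walls or from the control of inflammation, are described here across sorted splenic myeloid-derived suppressor cells (MDSCs). They were matched by gene symbol, and all 4 were found among the 23479 genes of the deposited table. They had been chosen by their normalized read counts, as genes that were higher in polymorphonuclear MDSCs (PMN-MDSCs, the granulocytic kind) after lymphodepletion. Their values in PMN-MDSCs, and their differences between PMN-MDSCs and monocytic MDSCs (M-MDSCs), are therefore given as a description without a test. M-MDSC comparisons were tested, taking the choice to rest on PMN-MDSC values. Which comparison chose the genes was not recorded. If it set PMN-MDSCs against M-MDSCs, M-MDSC values took part in the choice, and the M-MDSC p-values are then not independent of it.

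Total RNA of the sorted cells was sequenced in 24 libraries, 8 groups of 3. All mice carried B16 tumours, a transplanted mouse melanoma, of more than 25 mm2, and all cells came from spleen and were sorted to a stated purity above 99%. KO-labelled mice were of the strain B6.129S2-Il6tm1Kopf/J, with an interrupted interleukin-6 gene in every cell, and WT-labelled mice were C57BL/6. Lymphodepleted (LD) mice had received cyclophosphamide and fludarabine, drugs that kill lymphocytes and dividing cells, and spleens were taken 7 days later, while untreated (UT) mice received neither drug. The groups were lymphodepleted KO-labelled, untreated KO-labelled, lymphodepleted WT-labelled and untreated WT-labelled, each as PMN-MDSCs and as M-MDSCs. A library is named by genotype label, treatment, cell type and number, as in KO_LD_PMN_002. The study's text speaks of 3 mice a group (it gives no number for lymphodepleted knockouts), so p-values measure the spread between these samples. Mouse age and sex, and whether M and PMN libraries of one number share a mouse, were not given in the sources used here.

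MDSCs are immature cells of the myeloid lineage that accumulate in tumour-bearing hosts and hold back T cells. Mcam encodes CD146, an adhesion molecule of the immunoglobulin superfamily on endothelial cells and pericytes, which binds laminin and is also carried by some lymphocytes. Acvrl1 encodes ALK1, a type I receptor of endothelial cells for the ligands BMP9 and BMP10, which signals through SMAD1 and SMAD5 with endoglin as co-receptor. Cd55 encodes decay-accelerating factor, a membrane-anchored inhibitor that takes apart the C3 convertases of complement and also binds the adhesion receptor CD97. Anxa1 encodes annexin A1, an abundant cytosolic protein of neutrophils and monocytes that is induced by glucocorticoids, is released on activation and acts on formyl peptide receptors to limit neutrophil entry into tissue.

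Recovered read totals were 3249647 to 9999731 in PMN-MDSC libraries, with WT_LD_PMN_001 the shallowest, and 7237462 to 11193088 in M-MDSC libraries. The ribosomal transcript Rn45s took 2.94 to 19.8% of them. The targeted gene ran against the labels. Il6 had a normalized read count of 64.5 to 219.7 in KO-labelled PMN-MDSC libraries and 16.2 to 45.3 in KO-labelled M-MDSC libraries, against 0 to 7.20 in all 12 WT-labelled libraries. A count over the whole gene does not distinguish an interrupted transcript, so each KO or WT direction below is between libraries carrying that label. Summed monocyte markers were 3011 to 7770 in PMN-MDSC libraries and 44474 to 66695 in M-MDSC libraries, and summed mature neutrophil markers were 112714 to 209459 in PMN-MDSC libraries and 25050 to 66642 in M-MDSC libraries, in the direction of the sort labels.

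The genes lie on 4 chromosomes. On GRCm38, Mcam spans chr9:44134469-44142727 on the plus strand, Acvrl1 chr15:101128522-101145336 on the plus strand, Cd55 chr1:130439027-130462744 on the minus strand and Anxa1 chr19:20373428-20390944 on the minus strand (GENCODE vM21). Each overlaps 1 noncoding gene on the other strand, and whether reads were counted by strand is not given in the sources used here. The overlapping gene of Anxa1, 1500015L24Rik, reached at most 4.64 normalized counts in any library. Cd55 has a near-identical neighbour, Daf2 (Cd55b), so its reads are uncertain where the copies match. Daf2 averaged 7.59 normalized counts or less in each group.

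Promoter sequences are shown because Mcam and Cd55 moved together in M-MDSCs while Anxa1 did not follow them there. RefSeq (GRCm38.p6) gave a promoter, 250 bases before to 50 after the start, for 3 of the 4 genes (not Acvrl1), at chr9:44134408-44134707 for Mcam, chr1:130462695-130462994 for Cd55 and chr19:20390622-20390921 for Anxa1. Capitals mark matches, on either strand, to the Sp1 GC box GGGCGG, the GC-rich BMP element GGCGCC, the SMAD short element GTCTG, the C/EBP pattern TTNNGNAA and the TATA box TATAAA.
Mcam: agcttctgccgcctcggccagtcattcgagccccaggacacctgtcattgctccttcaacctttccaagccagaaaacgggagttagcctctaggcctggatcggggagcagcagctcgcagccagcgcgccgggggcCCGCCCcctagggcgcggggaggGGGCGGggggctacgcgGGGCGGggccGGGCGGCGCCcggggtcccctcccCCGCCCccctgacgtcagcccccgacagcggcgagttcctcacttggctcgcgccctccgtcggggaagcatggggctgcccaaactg
Cd55: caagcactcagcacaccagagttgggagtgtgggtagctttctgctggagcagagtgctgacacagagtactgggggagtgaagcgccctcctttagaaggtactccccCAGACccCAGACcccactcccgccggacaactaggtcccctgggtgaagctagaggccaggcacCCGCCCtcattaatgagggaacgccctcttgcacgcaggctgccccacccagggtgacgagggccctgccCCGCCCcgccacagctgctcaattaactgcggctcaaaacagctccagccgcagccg
Anxa1: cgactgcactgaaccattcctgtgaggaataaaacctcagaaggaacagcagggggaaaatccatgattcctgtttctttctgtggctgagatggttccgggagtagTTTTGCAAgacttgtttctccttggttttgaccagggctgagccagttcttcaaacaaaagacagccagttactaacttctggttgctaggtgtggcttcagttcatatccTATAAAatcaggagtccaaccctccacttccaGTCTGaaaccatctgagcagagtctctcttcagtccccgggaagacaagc
The Mcam window was the richest in G and C, at 72.7%, with 29 CpG dinucleotides, 5 GC boxes and 1 GGCGCC that overlaps the fourth of them. The Cd55 window had 63.3% G and C, 12 CpG, 2 GC boxes and 2 SMAD short elements. The Anxa1 window had 47.3% G and C and 3 CpG, with a TATA box 32 bases before the start, a C/EBP match 143 bases before it and a SMAD short element at it. The median over all 32851 mouse promoters of this length was 52.7% G and C (quartiles 45.7 and 61.7) with 7 CpG (quartiles 3 and 20). Such short patterns are common: GGGCGG stood in 35.7% of these promoters, GTCTG in 49.6%, TTNNGNAA in 40.7%, TATAAA in 13.6% and GGCGCC in 11.9%. The glucocorticoid short element AGAACA, in 19% of promoters, was in none of the 3 windows, and neither were the ETS core ACCGGAAG (2.3%), the STAT pattern TTCNNNGAA (8.3%), the NF-kB pattern (0.411%), the E-box CACGTG (7.15%), the SMAD palindrome GTCTAGAC (0.213%) or the full glucocorticoid response element (0.00913%).

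**Figure D1:**
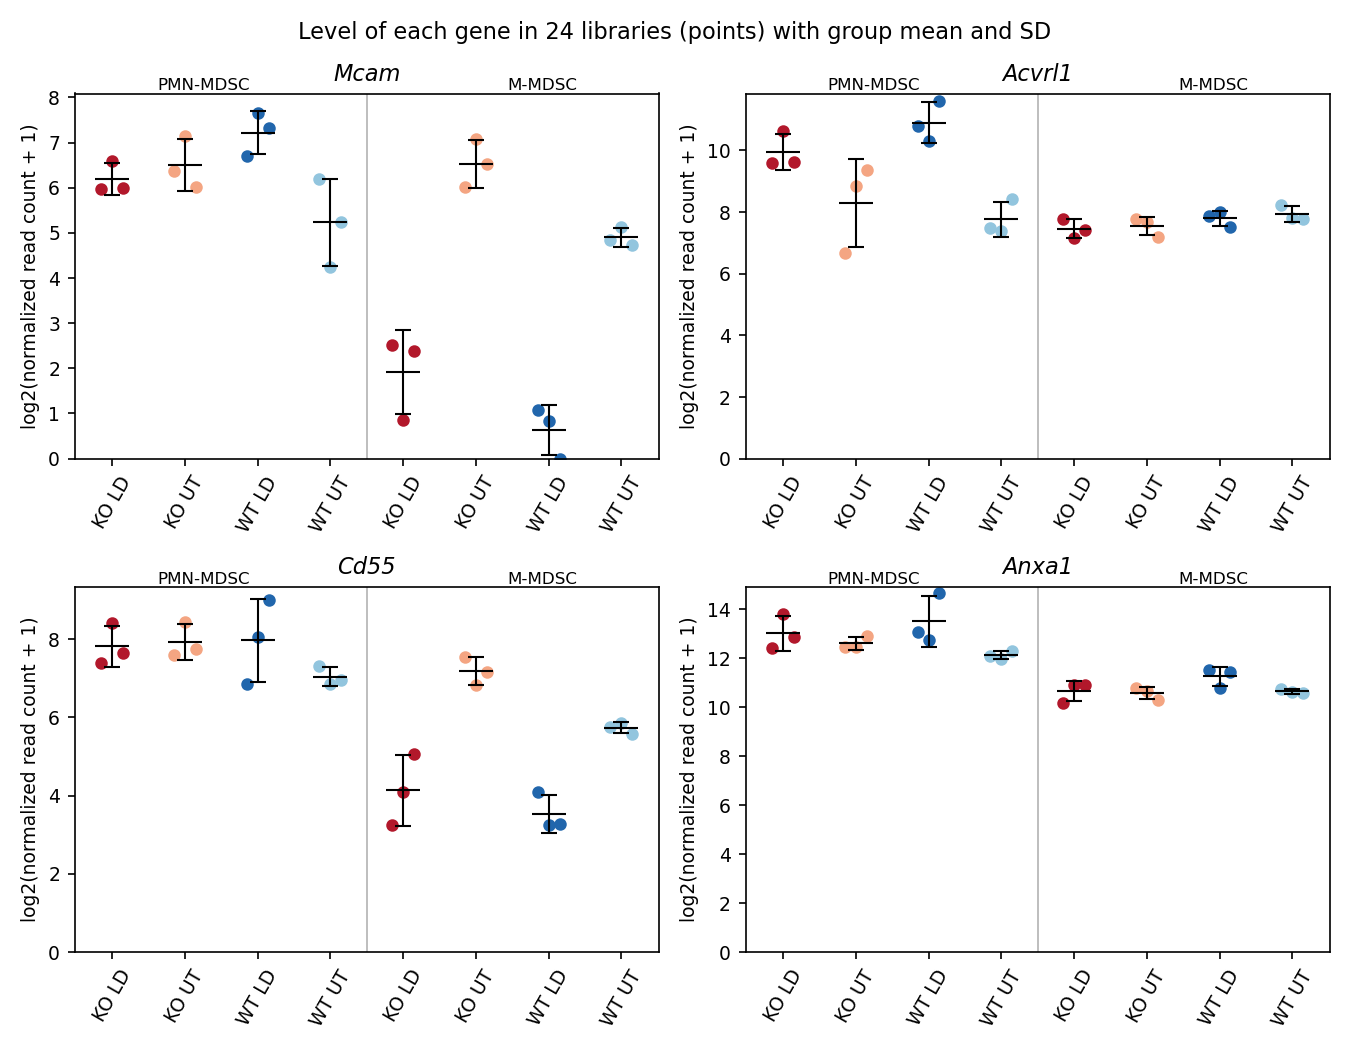
Each panel plots 1 gene as log2(normalized read count + 1) for 8 groups, with 1 point per library and the mean and SD of 3 libraries in black, PMN-MDSC groups left and M-MDSC groups right. Mcam and Cd55 sit low in both lymphodepleted M-MDSC groups, while all 4 genes have their highest group mean in lymphodepleted WT-labelled PMN-MDSCs.

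Mcam and Cd55 fell sharply in M-MDSCs after lymphodepletion under both labels, while Acvrl1 and Anxa1 did not pass the test. Mcam had 4.75, 0.810 and 4.22 normalized counts in KO-labelled M-MDSCs after lymphodepletion, against 63.4, 133 and 90.4 in untreated KO-labelled M-MDSCs. It had 1.11, 0.774 and 0 in lymphodepleted WT-labelled M-MDSCs, against 27.5, 34.1 and 25.5 in untreated WT-labelled M-MDSCs. Under each label every lymphodepleted library lay below every untreated one, and the lymphodepleted libraries were close to the detection limit. As reads, that was 13 against 432 in KO-labelled cells and 3 against 103 in WT-labelled cells. With the libraries scaled as in the deposited counts, these were 29.0 times lower (exact 95% interval 16.8 to 55.0) and 41.3 times lower (13.8 to 204). The intervals cover counting error only. On the log2(normalized count + 1) scale, which understates changes of low genes, the difference was −4.61 ± 0.54 (SE, 3 against 3 libraries) in KO-labelled cells (adjusted p = 0.000258) and −4.26 ± 0.54 in WT-labelled cells (adjusted p = 0.000179) in limma with Benjamini-Hochberg adjustment over 11570 genes. Under each label 6 genes had a larger fall.

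Cd55 followed the same order at a higher level. It had 8.55, 16.2 and 32.6 normalized counts in KO-labelled M-MDSCs after lymphodepletion, against 186, 112 and 143 in untreated ones. It had 16.1, 8.51 and 8.62 in lymphodepleted WT-labelled M-MDSCs, against 53.4, 57.5 and 47.2 in untreated ones. No lymphodepleted library reached an untreated one of its label. The log2 difference was −3.04 ± 0.42 in KO-labelled cells (limma adjusted p = 0.00079) and −2.20 ± 0.42 in WT-labelled cells (limma adjusted p = 0.00242). So 2 of the 4 genes were called, both lower, under each label, where 11.6% of all genes tested were called in KO-labelled and 18.3% in WT-labelled M-MDSCs (5.52% and 8.82% lower), and libraries did not overlap, on the lower side, for 13.6% and 21.9%. Leaving out any 1 library, or any other processing tried, kept all 4 of these calls. The shares over all genes moved more: the 1346 genes called under the KO label became 580 without KO_LD_M replicate 2, 568 without KO_UT_M replicate 1 and 713 without KO_UT_M replicate 2, and the 2122 under the WT label became 1163 without WT_LD_M replicate 3 and 1365, 1385 and 1229 without WT_UT_M replicate 1, 2 or 3.

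Acvrl1 had 219, 143 and 169.6 normalized counts in KO-labelled M-MDSCs after lymphodepletion, against 217, 203 and 146 in untreated ones. It had 234, 253 and 184 in lymphodepleted WT-labelled M-MDSCs, against 299, 224 and 219.9 in untreated ones. The ranges overlapped under both labels, and the log2 differences were −0.09 ± 0.21 (KO label, limma adjusted p = 0.828) and −0.15 ± 0.21 (WT label, limma adjusted p = 0.672). Anxa1 had 1158, 1938 and 1907 in KO-labelled M-MDSCs after lymphodepletion, against 1742, 1629 and 1263 in untreated ones, again overlapping, with a log2 difference of 0.09 ± 0.22 (limma adjusted p = 0.843). It had 2970, 1768 and 2774 in lymphodepleted WT-labelled M-MDSCs, against 1727, 1583 and 1514 in untreated ones. Those libraries did not overlap (higher without overlap for 16.9% of all genes), and the log2 difference of 0.60 ± 0.22 missed the threshold in limma (adjusted p = 0.0707) but passed it in edgeR (0.69, adjusted p = 0.0417), in DESeq2 (0.68, adjusted p = 0.0206), after quantile normalization (0.71, adjusted p = 0.0373) and without WT_LD_M replicate 2 (0.84, adjusted p = 0.0140). Over all alternatives its adjusted p ran up to 0.461.

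Between labels, untreated KO-labelled M-MDSCs had more Mcam and Cd55 in every library than untreated WT-labelled ones, at the values above, without passing the main test. The log2 difference was 1.63 ± 0.54 for Mcam (limma adjusted p = 0.101) and 1.44 ± 0.42 for Cd55 (limma adjusted p = 0.0685). Acvrl1 differed by −0.40 ± 0.21, with no library of the KO label reaching one of the WT label, and Anxa1 by −0.07 ± 0.22 with overlap. Thus limma called 0 of the 4 (2 with an unadjusted p under 0.05), while edgeR and DESeq2 each called 2, Mcam at 1.77 (adjusted p = 0.0354) and 1.76 (adjusted p = 0.0012), and Cd55 at 1.54 (adjusted p = 0.0399) and 1.52 (adjusted p = 0.00296). A pseudocount of 5 also gave 2 calls, and over all alternatives the adjusted p ran up to 0.295 for Mcam and 0.261 for Cd55. Of all 11570 genes, 2563 had an unadjusted p under 0.05 in limma in this comparison. Libraries did not overlap for 16.1% of all genes on the higher and 17.9% on the lower side. Of all genes 4.03% were called, 259 higher and 207 lower in limma but 361 higher and 138 lower in edgeR. The 466 calls of limma became 54 to 91 without any 1 of the 6 libraries other than KO_UT_M replicate 2 (544 without that one). In lymphodepleted M-MDSCs limma called 0 of the 4 between labels (0.207% of all genes called), 2 had an unadjusted p under 0.05 (Mcam at 1.29 ± 0.54 and Anxa1 at −0.59 ± 0.22), and edgeR and DESeq2 also called 0. In that comparison 1081 of all 11570 genes had an unadjusted p under 0.05 in limma. The 24 genes called there became 0 without KO_LD_M replicate 1 or 3, 6 without WT_LD_M replicate 3, 62 without KO_LD_M replicate 2 and 56 without WT_LD_M replicate 1. The interaction of label and treatment, the test of whether the labels responded differently, was −0.35 ± 0.76 for Mcam, 0.06 ± 0.30 for Acvrl1, −0.83 ± 0.59 for Cd55 and −0.52 ± 0.31 for Anxa1. Limma, edgeR and DESeq2 called 0 of the 4 there, and 0 had an unadjusted p under 0.05 in limma (1413 of all 11570 genes). Of all genes 0.00864% were called (1 gene, 0 to 7 with 1 library left out).

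**Figure D2:**
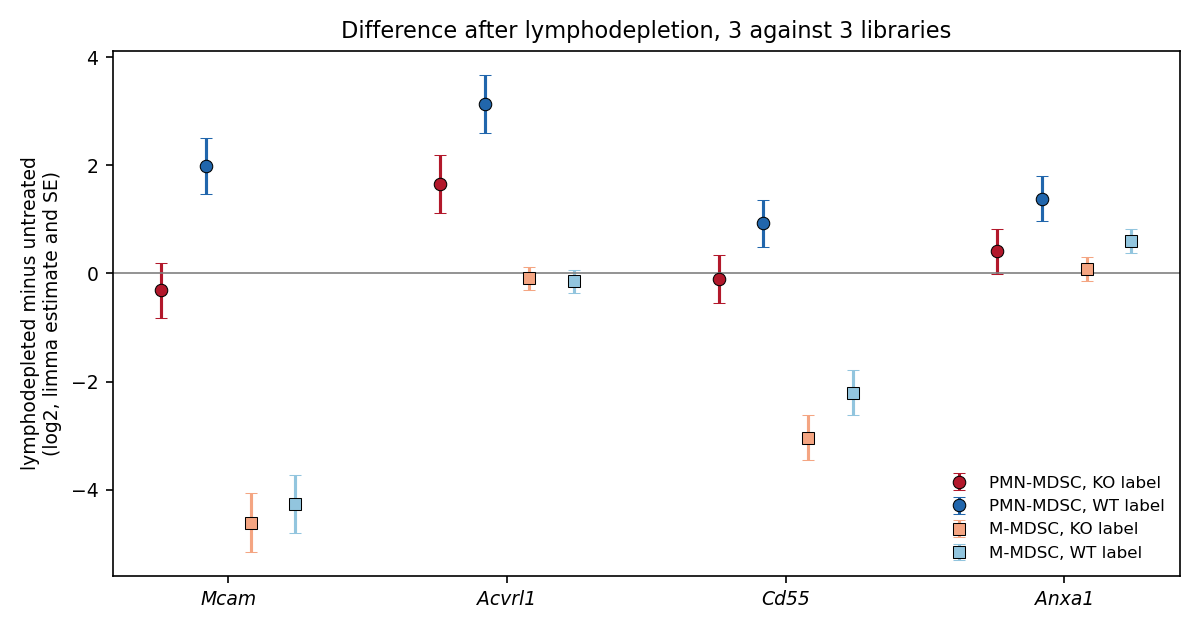
The vertical axis is the lymphodepleted minus untreated difference in log2(normalized count + 1), with the limma estimate and SE of 3 against 3 libraries, for each gene in PMN-MDSCs (circles) and M-MDSCs (squares). Mcam and Cd55 lie far below 0 in M-MDSCs under both labels, and Acvrl1 lies highest in PMN-MDSCs.

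Lymphocyte markers moved with Mcam and Cd55 in M-MDSCs. The summed level of 9 natural killer (NK) cell markers was 463 to 1338 in KO-labelled M-MDSCs after lymphodepletion, against 6735 to 9914 in untreated ones, and 175 to 399 in lymphodepleted WT-labelled M-MDSCs, against 1756 to 2096 in untreated ones. All 9 fell under both labels (median log2 differences −3.31 for KO and −2.90 for WT, against −0.02 and −0.07 over all genes), and 9 of 9 remained called without any 1 library. None of the 9 was at 0 in all libraries of a group. The NK sum was also higher in untreated KO-labelled than untreated WT-labelled M-MDSCs, where 8 of 9 markers were called higher in limma, 4 without KO_UT_M replicate 1 or WT_UT_M replicate 2, 3 without WT_UT_M replicate 1 and 1 without WT_UT_M replicate 3. Summed T cell markers (10 genes) were 176 to 560.0 against 1174 to 2082 in KO-labelled M-MDSCs (lymphodepleted against untreated) and 99.1 to 161 against 293 to 493 in WT-labelled ones, and 7 and 3 of the 10 fell, though only 2 of the KO-labelled calls were left without KO_LD_M replicate 2 or KO_UT_M replicate 1. Summed B cell markers (9 genes) were 128 to 171 against 952 to 1542 in KO-labelled M-MDSCs and 94.8 to 135 against 500.1 to 589 in WT-labelled ones, and 9 and 7 of the 9 fell. In bulk libraries fewer cells of a type and less RNA per cell cannot be told apart, and the part of these cells in the Mcam and Cd55 values was not tested.

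In PMN-MDSCs Mcam was highest in lymphodepleted WT-labelled mice. It had 62.2, 95.9 and 63.0 normalized counts in lymphodepleted KO-labelled PMN-MDSCs, against 81.6, 140.0 and 63.3 in untreated ones. It had 103, 199 and 158 in lymphodepleted WT-labelled PMN-MDSCs, against 72.2, 18.0 and 37.0 in untreated ones. Only the WT-labelled libraries separated, and KO-labelled lymphodepleted libraries all lay below WT-labelled lymphodepleted ones, as for 4.9% of all genes. The log2 difference after lymphodepletion was −0.31 ± 0.51 under the KO label (−0.56 to 0.01 with 1 library left out) and 1.99 ± 0.51 under the WT label (1.498 to 2.47). Few reads stand behind the low values: WT_UT_PMN_002 had 15 Mcam reads and WT_UT_PMN_003 had 17.

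Acvrl1 was the member with the widest separation in PMN-MDSCs, under both labels. It had 769, 1592 and 788 normalized counts in lymphodepleted KO-labelled PMN-MDSCs, against 101, 459 and 658 in untreated ones. It had 1785, 1258 and 3109 in lymphodepleted WT-labelled PMN-MDSCs, against 177, 168 and 339.5 in untreated ones. No lymphodepleted library overlapped an untreated one of its label. The log2 difference was 1.65 ± 0.54 under the KO label, 0.84 without KO_UT_PMN replicate 1, whose 101 rests on 41 reads, and 3.14 ± 0.54 under the WT label (2.79 to 3.46 with 1 library left out).

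Cd55 overlapped between treatments in PMN-MDSCs under both labels. It had 167, 339.6 and 201 normalized counts in lymphodepleted KO-labelled PMN-MDSCs, against 193, 347 and 214 in untreated ones. It had 116, 263 and 509.7 in lymphodepleted WT-labelled PMN-MDSCs, against 159, 114 and 124 in untreated ones. The lowest lymphodepleted WT-labelled library, WT_LD_PMN_001, had 36 Cd55 reads and lay within the untreated range. The log2 difference was −0.11 ± 0.44 under the KO label and 0.92 ± 0.44 under the WT label, 0.41 without WT_LD_PMN replicate 3.

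Anxa1 was the most abundant of the 4 in every group. It had 5417, 14144 and 7442 normalized counts in lymphodepleted KO-labelled PMN-MDSCs, against 5601, 5663 and 7716 in untreated ones. It had 8664, 6882 and 26281 in lymphodepleted WT-labelled PMN-MDSCs, against 4382, 4046 and 4999 in untreated ones. The KO-labelled libraries overlapped and the WT-labelled ones did not, with 1 library, WT_LD_PMN_003, far above the other two. The log2 difference was 0.41 ± 0.41 under the KO label, 0.02 without KO_LD_PMN replicate 2, and 1.38 ± 0.41 under the WT label, 0.79 without WT_LD_PMN replicate 3.

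So 3 of the 4 genes were higher without overlap in WT-labelled PMN-MDSCs, a background of 12% of all genes, and 1 in KO-labelled PMN-MDSCs, a background of 6.03%, and these counts are not evidence because the genes were chosen there. The median log2 difference of all genes in WT-labelled PMN-MDSCs was −0.20 under the authors' scaling and −0.05 after quantile normalization, so differences relative to the other genes were up to 0.20 larger than the values given. Differences between KO-labelled and WT-labelled PMN-MDSCs were 1.28 ± 0.51, 0.53 ± 0.54, 0.89 ± 0.44 and 0.49 ± 0.41 in untreated mice for Mcam, Acvrl1, Cd55 and Anxa1. In lymphodepleted mice they were −1.03 ± 0.51, −0.95 ± 0.54, −0.15 ± 0.44 and −0.49 ± 0.41, in the same order of genes.

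After lymphodepletion, many neutrophil granule and cell cycle genes rose in WT-labelled PMN-MDSCs, and many also rose in M-MDSCs, where Mcam and Cd55 fell. The summed level of 10 secondary and tertiary granule genes was 84028, 267363 and 97602 in lymphodepleted KO-labelled PMN-MDSCs, against 30520, 57938 and 126905 in untreated ones. It was 120793, 95006 and 544406 in lymphodepleted WT-labelled PMN-MDSCs, against 29614, 40243 and 40290 in untreated ones. WT_LD_PMN_003 was the highest library of its group in this sum and in Acvrl1, Cd55 and Anxa1, and KO_LD_PMN_002 was the highest of its group in this sum and in all 4 genes. The untreated groups differed: KO_UT_PMN_003 was the highest of its group in this sum, Acvrl1 and Anxa1 but the lowest in Mcam (63.3). WT_UT_PMN_001 was the lowest of its group in this sum but the highest in Mcam (72.2) and Cd55 (159). Under the WT label 8 of 10 secondary and tertiary granule genes, 6 of 8 primary granule genes and 15 of 18 cell cycle genes rose, where 10.9% of all genes were called, 4.14% higher and 6.73% lower, and under the KO label, where 0.224% of all genes were called, limma and edgeR called 0 of each list. At an unadjusted p under 0.05 there were 5, 1 and 11 genes of these lists under the KO label (1321 of all 12971 genes), and DESeq2 called 0, 0 and 3. Those counts depended on single libraries, as did the 1410 genes called under the WT label, which became 2130 without WT_LD_PMN replicate 1, 435 (190 higher, 245 lower) without WT_LD_PMN replicate 3, and 114 (81 and 33), 161 (107 and 54) and 407 (223 and 184) without WT_UT_PMN replicate 1, 2 or 3. The 29 called under the KO label became 13, 17, 7, 1 and 19 without KO_LD_PMN replicate 2 or 3 or KO_UT_PMN replicate 1, 2 or 3. Of the lists, the 8 became 3 without WT_LD_PMN replicate 3 or WT_UT_PMN replicate 3, 2 without WT_UT_PMN replicate 2 and 1 without WT_UT_PMN replicate 1. Without the same libraries, in the same order, the 6 primary granule calls became 2, 3, 1 and 1, and the 15 cell cycle calls 7, 9, 6 and 6. The cell cycle sum was 4588 to 18388 against 821 to 4679 under the KO label and 9624 to 32106 against 1659 to 1903 under the WT label, lymphodepleted against untreated. Natural killer markers summed to 342 to 627 against 561 to 2134 under the KO label and 70.6 to 263 against 341 to 431 under the WT label. Between the WT-labelled groups, the one with the lower sum had the higher Mcam. Inside each WT-labelled group the libraries ranked alike in both: 70.6, 143 and 263 beside Mcam of 103, 158 and 199 after lymphodepletion. In the lymphodepleted KO-labelled group the library with the most Mcam (95.9) had the lowest sum (342). In M-MDSCs after lymphodepletion, limma called 18 of 18 cell cycle genes higher under both labels (14 to 18 with 1 KO-labelled library left out). Of 8 primary granule genes, 8 rose under the WT label and 1 under the KO label (1 to 7 with 1 library left out). Of 10 secondary and tertiary granule genes, 6 and 5 rose, where 18.3% and 11.6% of all genes were called. The part of these gene groups or of single libraries in the values of the 4 genes was not tested.

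**Figure D3:**
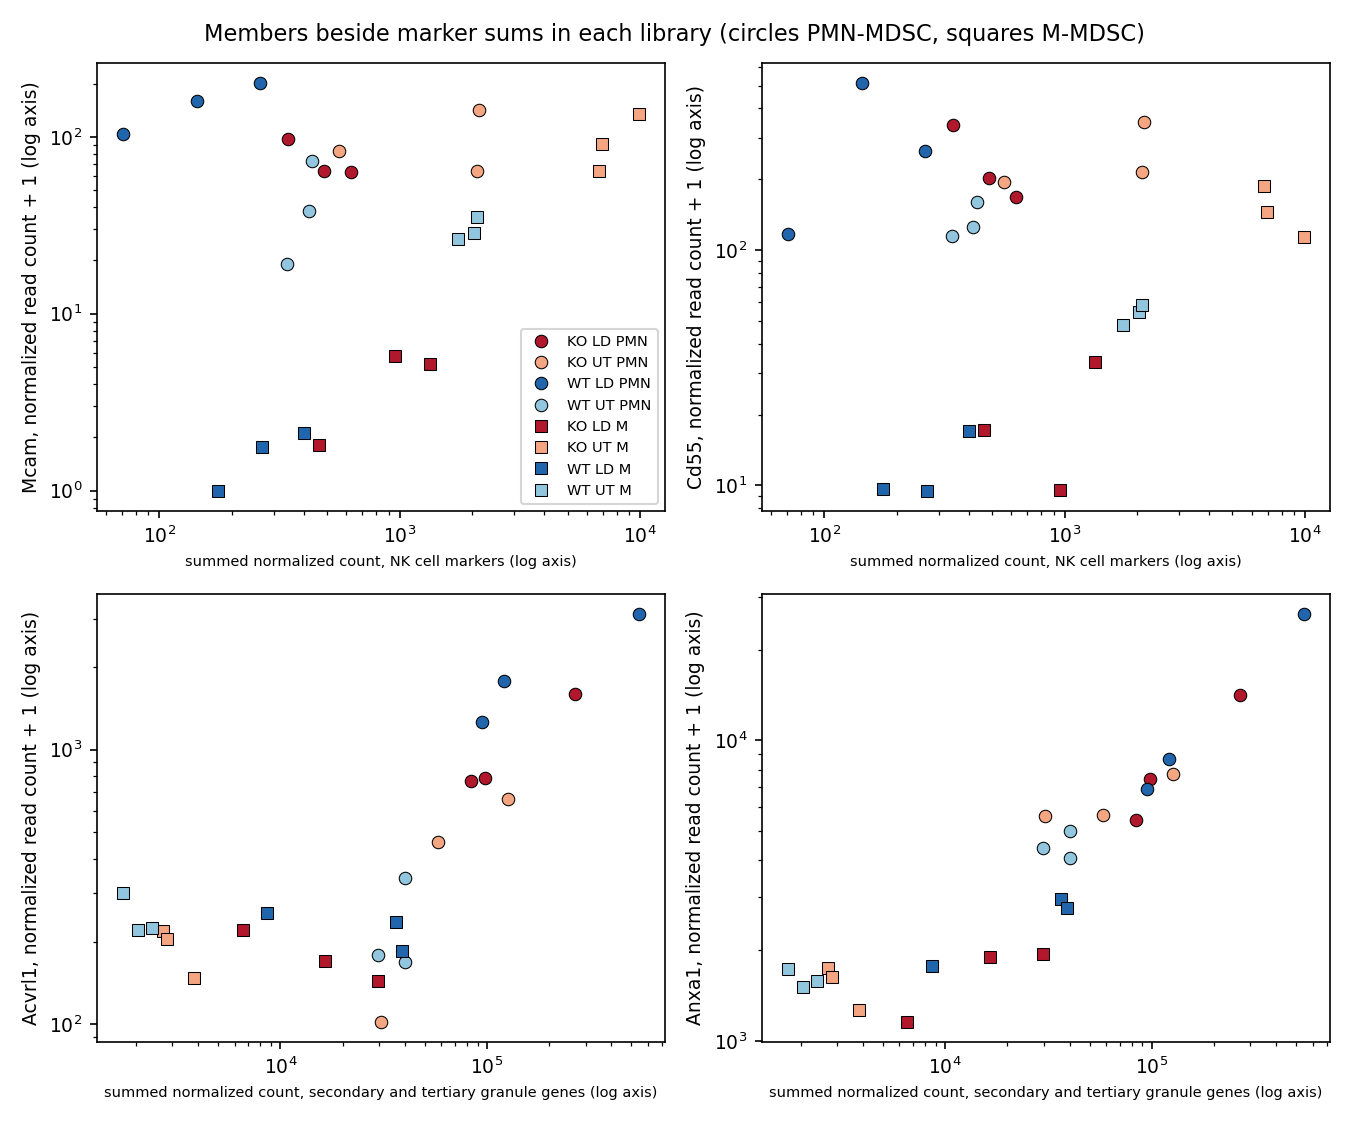
Each point is 1 of 24 libraries, with normalized read count + 1 of a gene on the vertical axis against a summed marker level on the horizontal axis, both log axes, for natural killer markers (upper panels) and secondary and tertiary granule genes (lower panels). In M-MDSCs (squares) Mcam and Cd55 are low where the natural killer sum is low, and in PMN-MDSCs (circles) the library with the highest granule sum, 544406, also has the highest Acvrl1 (3109) and Anxa1 (26281).

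Markers of endothelial cells were compared in the same fits. Of 20 endothelial markers, 13 passed the filter on low values in PMN-MDSCs. After lymphodepletion under the WT label limma called 1 higher and 0 lower, where 4.14% of all genes were called higher and 6.73% lower. Under the KO label limma, edgeR and DESeq2 called 0, with 2 at an unadjusted p under 0.05 (1321 of all 12971 genes). The median log2 difference of the 13 was 0.08 under the KO label and 0.44 under the WT label, against −0.07 and −0.20 over all genes. The summed level was 731 to 877 against 611 to 795 under the KO label and 934 to 1361 against 554 to 799 under the WT label. Only the WT-labelled libraries did not overlap. Emcn, Sox17 and Clec14a were at 0 in all 3 libraries of both lymphodepleted PMN-MDSC groups, as were Ecscr in the KO-labelled one and Cldn5 in the WT-labelled one. In each untreated PMN-MDSC group only Cldn5 and Sox18 were at 0 in all 3 libraries. The endothelial cadherin Cdh5 averaged 36.7 normalized counts in lymphodepleted against 14.1 in untreated WT-labelled PMN-MDSCs, and Pecam1 averaged 156.5 against 223.9, neither called. The 1 marker called was Erg, an ETS transcription factor also active in blood progenitors, at 2.87 ± 0.61 (adjusted p = 0.0141 in limma), and it was not called without any 1 of the 3 untreated WT-labelled libraries. Erg also rose in M-MDSCs after lymphodepletion, by 4.19 ± 0.86 under the KO label (limma adjusted p = 0.00729) and 3.88 ± 0.86 under the WT label (limma adjusted p = 0.00701), while of the 6 other markers tested there none rose under either label and 1 fell under the WT label, Vwf, the gene of von Willebrand factor, at −1.30 ± 0.30 (limma adjusted p = 0.00936) but −0.02 ± 0.30 without a call under the KO label.

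**Figure D4:**
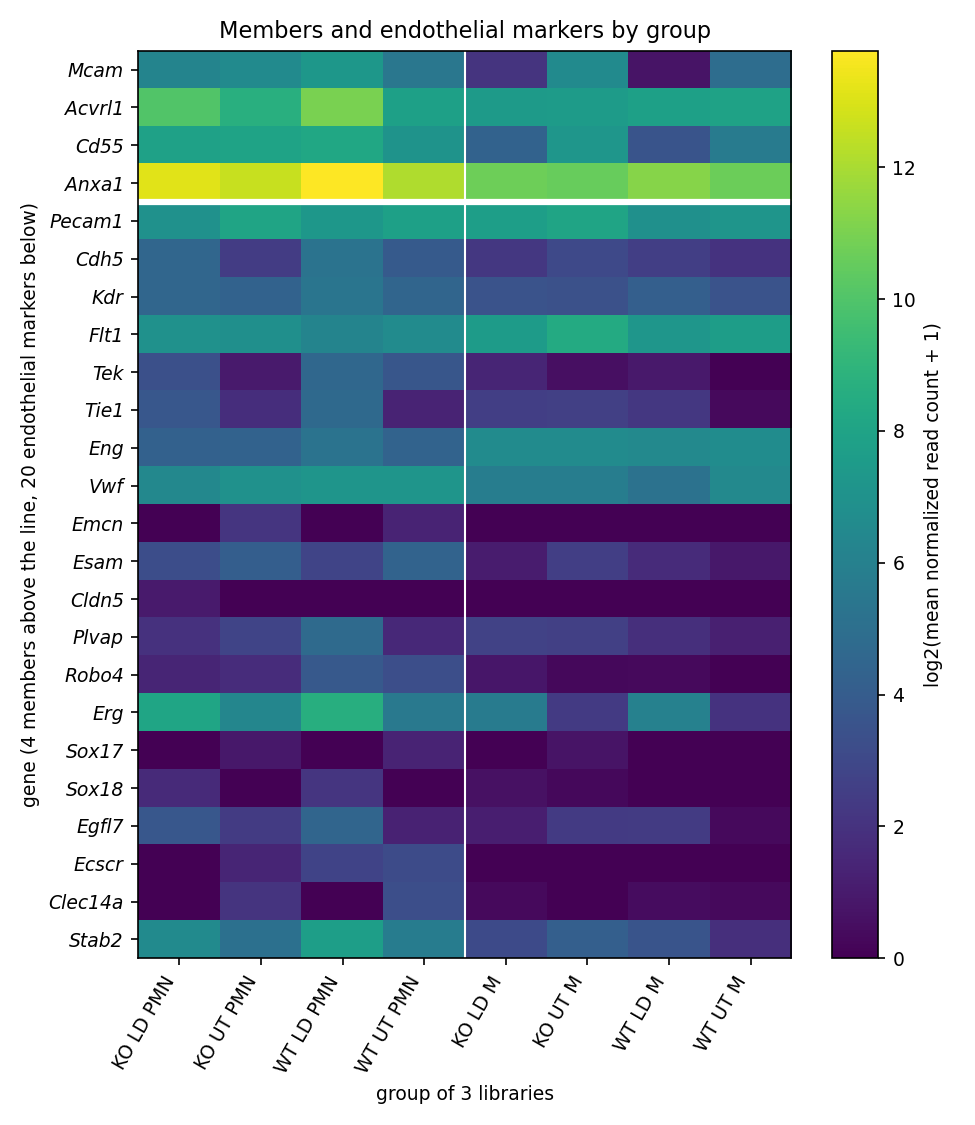
The heat map gives log2(mean normalized read count + 1) per group of 3 libraries, members in the 4 rows above the white line and 20 endothelial markers below it, with PMN-MDSC groups left of M-MDSC groups. Emcn, Cldn5 and Sox17 are at or near 0 throughout, and Anxa1 is the brightest row.

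In the ALK1 and BMP pathway (25 genes, 19 tested in PMN-MDSCs and 20 in M-MDSCs) limma called no gene higher in WT-labelled PMN-MDSCs and 2 lower, the receptors Tgfbr2 (−0.99 ± 0.26, adjusted p = 0.0308 in limma) and Tgfbr1 (−0.74 ± 0.22, adjusted p = 0.0450), calls both lost in edgeR, without WT_LD_PMN replicate 3 and without any 1 untreated WT-labelled library, with 1 left without WT_LD_PMN replicate 1. Endoglin (Eng), the co-receptor, averaged 36.2 normalized counts in lymphodepleted and 19.9 in untreated WT-labelled PMN-MDSCs, and the target Id1 averaged 205.6 and 181.9, neither called. In M-MDSCs, where Acvrl1 was not called, 4 genes of this list fell and 1 rose under the KO label, and 6 fell and 1 rose under the WT label. The signal transducer Smad3 fell under both, by 1.16 ± 0.14 on the log2 scale under the KO label (limma adjusted p = 0.000391) and by 1.03 ± 0.14 under the WT label (limma adjusted p = 0.00027), and the receptor Bmpr1a rose under both, by 2.10 ± 0.55 and 2.14 ± 0.55 (limma adjusted p = 0.0248 and 0.0165). The count of 6 was 3 in edgeR and 1 to 3 without WT_LD_M replicate 3 or any 1 untreated WT-labelled library, and the count of 4 was 1 without KO_LD_M replicate 2 or KO_UT_M replicate 1 and 2 without KO_UT_M replicate 2. The rise of Bmpr1a was not called without WT_LD_M replicate 1 or 3 or WT_UT_M replicate 1 under the WT label, nor without KO_LD_M replicate 2 under the KO label.

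Among complement regulators and receptors (20 genes), those around Cd55 mostly fell or stayed uncalled. In WT-labelled PMN-MDSCs 5 of 16 tested fell and 1 rose, and in KO-labelled PMN-MDSCs 1 fell and none rose. The largest fall was that of Cr2, a complement receptor of B cells, at −4.54 ± 0.65 under the KO label (limma adjusted p = 0.00551) and −3.66 ± 0.65 under the WT label (limma adjusted p = 0.00781), beside B cell marker sums of 90.0 to 176 against 1201 to 2614 and 76.2 to 248 against 1471 to 1774. Cd97, the adhesion receptor that CD55 binds, fell in WT-labelled PMN-MDSCs by 1.57 ± 0.26 on the log2 scale (limma adjusted p = 0.00781) and was −0.71 ± 0.26 in KO-labelled ones without a call. In M-MDSCs Cd97 fell along with Cd55, by 1.15 ± 0.22 under the KO label (limma adjusted p = 0.00544) and 1.01 ± 0.22 under the WT label (limma adjusted p = 0.00657). The C5a receptor gene C5ar2 fell in WT-labelled PMN-MDSCs (−1.04 ± 0.26, limma adjusted p = 0.0264). The count of 5 was 3 in edgeR and 2 or 3 without WT_LD_PMN replicate 3 or any 1 untreated WT-labelled library, and without any 1 of those libraries the 1 rise was not called. Cr2 was not called under the KO label without KO_UT_PMN replicate 1 or 2.

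Of the annexins and formyl peptide receptors (18 genes, 12 tested in PMN-MDSCs), Anxa3 and Anxa5 rose in WT-labelled PMN-MDSCs, by 2.59 ± 0.46 and 1.14 ± 0.34, and Anxa6 fell by 1.27 ± 0.35 on the log2 scale (limma adjusted p = 0.00781, 0.0439 and 0.0350). The annexin A1 receptor gene Fpr2 averaged 740.6 normalized counts in lymphodepleted and 340.9 in untreated WT-labelled PMN-MDSCs and was not called. Without 1 library the 2 risers became 4 (WT_LD_PMN replicate 1) or 1 (any other), and Anxa6 was not called without any 1 untreated WT-labelled library. In M-MDSCs 1 of 11, Anxa6, fell under the KO label, a count of 0 to 3 without 1 library, each of the 6 KO-labelled libraries moving it. Under the WT label limma called 0, with 3 at an unadjusted p under 0.05 (3807 of all 11570 genes). EdgeR and DESeq2 made 1 call each there. Of 12 glucocorticoid response genes, 7 fell and none rose in WT-labelled PMN-MDSCs, among them Tgm2 (−1.71 ± 0.39), Il1r2 (−1.22 ± 0.28) and Dusp1 (−2.001 ± 0.48), at limma adjusted p of 0.0164, 0.0175 and 0.0222. Those 7 became 0 to 2 without WT_LD_PMN replicate 3 or any 1 untreated WT-labelled library. Under the KO label limma, edgeR and DESeq2 called 0 of the 12, with 1 at an unadjusted p under 0.05 (1321 of all 12971 genes).

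Of the immunoglobulin superfamily and laminin adhesion genes related to Mcam (18 genes, 16 tested in PMN-MDSCs), 3 rose and 2 fell in WT-labelled PMN-MDSCs. Alcam, another adhesion molecule of the superfamily, fell by 1.54 ± 0.33 on the log2 scale (limma adjusted p = 0.0147), and Ncam1 (1.72 ± 0.45, limma adjusted p = 0.0287) and the lectin gene Lgals3 (1.15 ± 0.31, limma adjusted p = 0.0307) rose. All 3 rises were lost without WT_LD_PMN replicate 3 or any 1 untreated WT-labelled library, and the 2 falls became 1 without WT_LD_PMN replicate 2 or 3 and 0 without any 1 untreated one. In M-MDSCs, where Mcam fell, Ncam1 rose under both labels, by 2.54 ± 0.62 (KO label, limma adjusted p = 0.0172) and 4.05 ± 0.62 (WT label, limma adjusted p = 0.000536), though under the KO label not without KO_LD_M replicate 2 or KO_UT_M replicate 1 or 2. The other fall in WT-labelled PMN-MDSCs was that of the laminin gene Lamb1, at −4.01 ± 1.12 (limma adjusted p = 0.0351). Lamb1 was at 0 in all 3 lymphodepleted WT-labelled PMN-MDSC libraries, so the size of its fall depends on the pseudocount.

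Between cell types, the members lay farther apart in lymphodepleted than in untreated mice, given as PMN-MDSCs minus M-MDSCs on the log2(normalized count + 1) scale. The Mcam difference was 4.27 in lymphodepleted and −0.03 in untreated KO-labelled mice, and 6.58 in lymphodepleted and 0.33 in untreated WT-labelled mice. For Acvrl1 it was 2.49 in lymphodepleted and 0.75 in untreated KO-labelled mice, and 3.10 in lymphodepleted and −0.18 in untreated WT-labelled mice. For Cd55 it was 3.68 in lymphodepleted and 0.75 in untreated KO-labelled mice, and 4.43 in lymphodepleted and 1.30 in untreated WT-labelled mice. For Anxa1 it was 2.35 in lymphodepleted and 2.03 in untreated KO-labelled mice, and 2.25 in lymphodepleted and 1.47 in untreated WT-labelled mice. The wide Mcam and Cd55 gaps in lymphodepleted mice combine low M-MDSC values with the PMN-MDSC levels above.

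Ordered by group mean, all 4 genes were highest in lymphodepleted WT-labelled PMN-MDSCs: Mcam at 153 ± 48.5 (SD, n = 3), Acvrl1 at 2050 ± 954, Cd55 at 296 ± 199 and Anxa1 at 13942 ± 10723 normalized counts. For Mcam the next were untreated KO-labelled M-MDSCs (95.7 ± 35.3), untreated KO-labelled PMN-MDSCs (95.0 ± 40.0), lymphodepleted KO-labelled PMN-MDSCs (73.7 ± 19.3), untreated WT-labelled PMN-MDSCs (42.4 ± 27.5) and untreated WT-labelled M-MDSCs (29.0 ± 4.53), neighbours whose libraries overlapped. Below a gap without overlap lay lymphodepleted KO-labelled (3.26 ± 2.14) and WT-labelled (0.628 ± 0.569) M-MDSCs. For Acvrl1 the next were lymphodepleted (1049 ± 470) and untreated (406 ± 282) KO-labelled PMN-MDSCs, the one pair of neighbours in its order whose libraries did not overlap, though their means ± SD did, followed by the 5 lowest groups, which ran from 248 ± 44.6 to 177 ± 38.6 and include untreated WT-labelled PMN-MDSCs (228 ± 96.4). For Cd55 the order went on with untreated (251 ± 83.9) and lymphodepleted (236 ± 91.3) KO-labelled PMN-MDSCs, untreated KO-labelled M-MDSCs (147 ± 37.1) and untreated WT-labelled PMN-MDSCs (132 ± 23.6), and was separated above and below untreated WT-labelled M-MDSCs (52.7 ± 5.17), with 19.1 ± 12.3 (KO label) and 11.1 ± 4.34 (WT label) in lymphodepleted M-MDSCs. For Anxa1 all 4 PMN-MDSC groups stood above all 4 M-MDSC groups, with lymphodepleted KO-labelled (9001 ± 4568), untreated KO-labelled (6327 ± 1204) and untreated WT-labelled (4476 ± 483) PMN-MDSCs separated from 2504 ± 645 and less in M-MDSCs. Per kilobase of merged exon, the mean level in lymphodepleted WT-labelled PMN-MDSCs was 45.8 normalized counts for Mcam, 61.0 for Cd55, 481 for Acvrl1 and 4790 for Anxa1.

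Across the 24 libraries, the genes most like each member by Pearson correlation of log2(normalized count + 1), among 8563 genes with a mean of at least 50, were Il18r1 (0.942), Farp1 (0.909) and Rab37 (0.880) for Mcam, and Rab37 (0.924), Stat4 (0.923) and Cmah (0.916) for Cd55. They were Ccdc125 (0.935), Smg9 (0.924) and Golim4 (0.917) for Acvrl1, and Mettl9 (0.980), Hipk1 (0.970) and F5 (0.968) for Anxa1. These coefficients describe libraries that share cell type, treatment and label, and carry no test. Rab37 was on the lists of both Mcam and Cd55, and these members had a coefficient of 0.925 with each other over the 12 M-MDSC libraries and 0.715 over the 12 PMN-MDSC libraries, where Cd55 and Anxa1 had 0.725. Acvrl1 and Anxa1 had 0.042 over M-MDSC libraries and 0.808 over PMN-MDSC libraries. Il18r1, a receptor subunit for interleukin-18 found on NK and T cells as well as myeloid cells, averaged 174 normalized counts in lymphodepleted against 715 in untreated KO-labelled M-MDSCs, and 64.1 against 258 in WT-labelled ones. Its coefficient with Mcam also covers the 12 PMN-MDSC libraries, whose Il18r1 levels are not given here, and the cells behind its reads were not tested.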

How the data were processed

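The deposited signal values are normalized read counts, which the authors made, as the values show, by dividing whole read counts by 1 size factor per library: within 0.001 reads, 100% of nonzero values were multiples of that library's smallest step, and dividing by it gave back the reads. The tools named are DESeq2, HTSeq 0.6.1 and STAR 2.5.3a with the mm10 build, per the submitters' processing notes. The sources used here do not give the annotation, strand setting or filters.

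Values were analysed as log2(normalized count + 1) with limma 3.58.1 in R 4.3.3, fitted on the 12 libraries of a cell type, or on all 24 for differences between cell types, for genes with at least 10 in at least 3 libraries. Two-sided p-values received Benjamini-Hochberg adjustment across every gene tested, and a gene was called below 0.05. The limma step was also run on simulated counts that gave every gene the same relative spread beyond counting error. That run does not speak for genes with a wider spread between libraries. EdgeR 4.0.16 and DESeq2 1.42.0 on recovered reads, pseudocounts of 0.5 and 5, no filter, quantile normalization, a replicate block, 1 fit of all libraries and each library left out were alternatives. The members, 21 gene lists (265 different genes) and the rule for named genes (members, up to 3 genes of each list with the smallest adjusted p in WT-labelled PMN-MDSCs, 3 most like each member) were chosen with earlier results of these data known. Genes named outside that rule were chosen after their values were seen.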

Additional observations from a re-analysis of the deposited data

Results flagged for a closer look

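In WT-labelled mice, Mcam moved in opposite directions in the 2 cell types after lymphodepletion, with no library overlapping in either. The log2 difference of lymphodepleted minus untreated was 1.99 in PMN-MDSCs and −4.26 in M-MDSCs. The difference between the cell types was not tested, and the PMN-MDSC value is among those that chose the gene.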

How the results depend on the processing

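In M-MDSCs, the falls of Mcam and Cd55 after lymphodepletion held under every alternative run. Anxa1 under the WT label was called with quantile normalization (0.71), edgeR (0.69) and DESeq2 (0.68), and was 0.46 to 0.84 with 1 library left out. The count of members called between labels in untreated M-MDSCs was 2 with a pseudocount of 5, edgeR or DESeq2, against 0, with Mcam at 1.51, 1.77 and 1.76 and Cd55 at 1.38, 1.54 and 1.52. Values near 0 changed sign without being called. With 1 library left out, lymphodepletion under the KO label gave −0.26 to 0.053 for Acvrl1 and −0.053 to 0.33 for Anxa1, the difference between labels in untreated M-MDSCs gave −0.16 to 0.070 for Anxa1 (0.061 with quantile normalization), and the interaction gave −0.66 to 0.19 for Mcam and −0.12 to 0.20 for Acvrl1. The Mcam interaction was also 0.012 with a pseudocount of 0.5, 0.32 in edgeR and 0.48 in DESeq2, and that of Acvrl1 −0.0034 in edgeR. The cause was not tested.

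Within a cell type the replicate numbers showed no pairing: same-numbered libraries of compared groups had deviations correlated by −0.228 to 0.126. Pairing of M and PMN libraries of one number was not examined, and the differences between cell types were fitted without it. With the number as a block, members called in M-MDSCs remained 2 and 2 after lymphodepletion and 0 between labels, and of all genes 269 against 466 were called between labels in untreated mice and 8 against 24 in lymphodepleted ones. Counts of called genes with 1 library left out are given beside the results. Under the other settings, the counts that moved over 1.5 times were those of 1 fit of all libraries in M-MDSCs (509 under the KO label and 815 under the WT label after lymphodepletion, 36 and 1 between labels) and in PMN-MDSCs (325 and 3491), DESeq2 (1071, 185 and 71 for labels and interaction in M-MDSCs, 246 in KO-labelled PMN-MDSCs), no filter (249 between labels in untreated M-MDSCs) and quantile normalization (825 in WT-labelled PMN-MDSCs, against 1410). The 1 gene called for the interaction in M-MDSCs also became 2 with a pseudocount of 5 or in edgeR. It became 0 with quantile normalization, the replicate block or 1 fit of all libraries. In WT-labelled PMN-MDSCs calls were 537 higher and 873 lower in limma, 469 and 356 after quantile normalization, and 629 and 391 in edgeR. Depth limits Mcam most: lymphodepleted M-MDSC libraries held 0 to 7 of its reads.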

Other observations

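Other cell markers in PMN-MDSCs were compared the same way. In WT-labelled mice 7 of 11 mature neutrophil markers fell and 2 rose after lymphodepletion, the lowest number of falls being 1, without WT_UT_PMN replicate 1 or 2, and 3 being left without WT_LD_PMN replicate 3 or WT_UT_PMN replicate 3. The 2 rises were lost without any 1 of those 4 libraries. Of 8 stem and progenitor genes tested 3 rose, 1 being left without WT_UT_PMN replicate 2 or 3. Megakaryocyte and platelet markers, whose cells share several endothelial genes, summed to 977 to 1402 against 728 to 883 under the KO label and 1314 to 1341 against 916 to 1066 under the WT label, lymphodepleted against untreated. Limma and edgeR called 0 of the 7 tested under the WT label, with 3 at an unadjusted p under 0.05 (3776 of all 12971 genes) and 2 called by DESeq2. Of 9 melanocyte markers, a sign of tumour cells, the defining Mlana, Tyr, Tyrp1, Dct, Sox10 and Slc45a2 were at 0 in every M-MDSC library and in every lymphodepleted WT-labelled PMN-MDSC library. In the other PMN-MDSC groups the markers at 0 in all 3 libraries were Mlana and Sox10 (lymphodepleted KO label), Tyr (untreated KO label) and none (untreated WT label). The sum of the 9 was 209 to 369 against 254 to 371 under the KO label and 71.6 to 247 against 361 to 467 under the WT label in PMN-MDSCs, lymphodepleted against untreated.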
